A study of Homo sapiens with 10 samples.

Results

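Potassium channel subunits and their accessory proteins, the genes whose symbols begin with KCN, were examined in the established human cell line HuCCT1, derived from a cholangiocarcinoma (bile duct cancer). Members were the probe sets with exactly 1 gene symbol starting with KCN, without antisense symbols, and each gene was read by its brightest probe set over the 10 arrays. This gave 87 genes of the 19775 measured, read by 170 probe sets. The rule asks for genes with a mean of at least 6 on the log2 signal scale to be reported apart, and there were 31 of them. KCNQ1DN is a non-coding RNA next to KCNQ1 and no channel subunit, but it falls under the rule and was kept.

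The study compared HuCCT1 cells carrying an empty vector (5 arrays) with HuCCT1 cells carrying a vector whose sample label is YAPS94A (5 arrays), and total RNA was hybridised to single-colour Affymetrix arrays. YAP1 is the transcriptional co-activator that Hippo signalling restrains. The sample labels and series title give S94A, which is known to reduce the binding of YAP to TEAD factors, while the design text names S127A, which gives a constitutively active protein. The name in the sample labels is used here. The labels do not say whether transfection was transient or stable, whether the cells were 1 clone, or whether each array had its own culture. The p-values therefore reflect only how these arrays vary, which may be technical.

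Potassium channels let potassium leave the cell down its gradient and so set the membrane potential. In bile duct and other secretory epithelia this exit supplies the electrical driving force for chloride and bicarbonate secretion, and it also serves in recovery from cell swelling. Pore-forming subunits fall into voltage-gated, inward rectifier, tandem-pore (K2P) and calcium- or sodium-activated classes, and smaller accessory subunits tune them.

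YAP1 itself read 12.32 ± 0.22 (log2 signal, mean ± SD, n = 5) in the empty vector arrays and 12.85 ± 0.18 in the construct arrays, which did not overlap (difference 0.52 ± 0.11, limma adjusted p = 0.00277). Its neighbours on the chromosome had a median difference of 0.31, and with this subtracted 0.22 remained and the call was lost (limma adjusted p = 0.144). A transcript made from a vector need not follow the neighbours of the YAP1 locus, so this subtraction cannot decide whether the construct was expressed. Of the 8 listed markers of biliary epithelium 7 were measured. Their group means lay between 12.65 and 14.30, and 5 were higher with the construct by at most 0.33. That is 71.4% past the test described below, beside 48.9% of all genes with a mean of at least 6. Of the markers of hepatocytes, fibroblasts, endothelium, leukocytes and neurons, 1 hepatocyte marker fell (SERPINA1, 12.84 to 12.65), 1 of 6 fibroblast markers rose (LUM, 8.04 to 10.70) and 1 neuron marker fell (SYT1, 4.16 to 3.67). Those shares were 16.7% for hepatocytes and for fibroblasts and 20% for neurons, beside 36.3% of all genes. The part of these markers in the results below was not tested. The first principal component held 81.1% of the variance between arrays and separated the vectors. The second held 9.78% and set the arrays numbered 1 and 2 of both vectors apart from the others. Some of the results that lean on those arrays are given with and without them.

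Differences are construct minus empty vector in log2 signal, with the standard error (SE) from limma, and a gene passed when its Benjamini-Hochberg adjusted p over all 19775 genes was under 0.05. Of the 87 genes, 11 were higher and 5 were lower with the construct, which is 18.4%, where 36.3% of all genes passed. The 31 genes with a mean of at least 6 held most of these calls, with 10 higher and 3 lower. That is 41.9% of them, beside 48.9% among all 12919 genes of that level, so the share of potassium channel genes that passed was not above that background. KCNK9 and KCNMB3, both higher, reached that level through the construct arrays only. Among the 29 genes with a mean of at least 6 in both vectors, 8 were higher and 3 lower (37.9%). The share over all genes was not taken in that way. The arrays of the vectors did not overlap for 9 of the 31 genes (29%), beside 39.9% of all genes of that level. The median difference was 0.00 for the 31 genes and also 0.00 over all genes. None of the 87 genes changed by 2-fold, and the differences ran from -0.52 to 0.85.

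**Figure D1:**
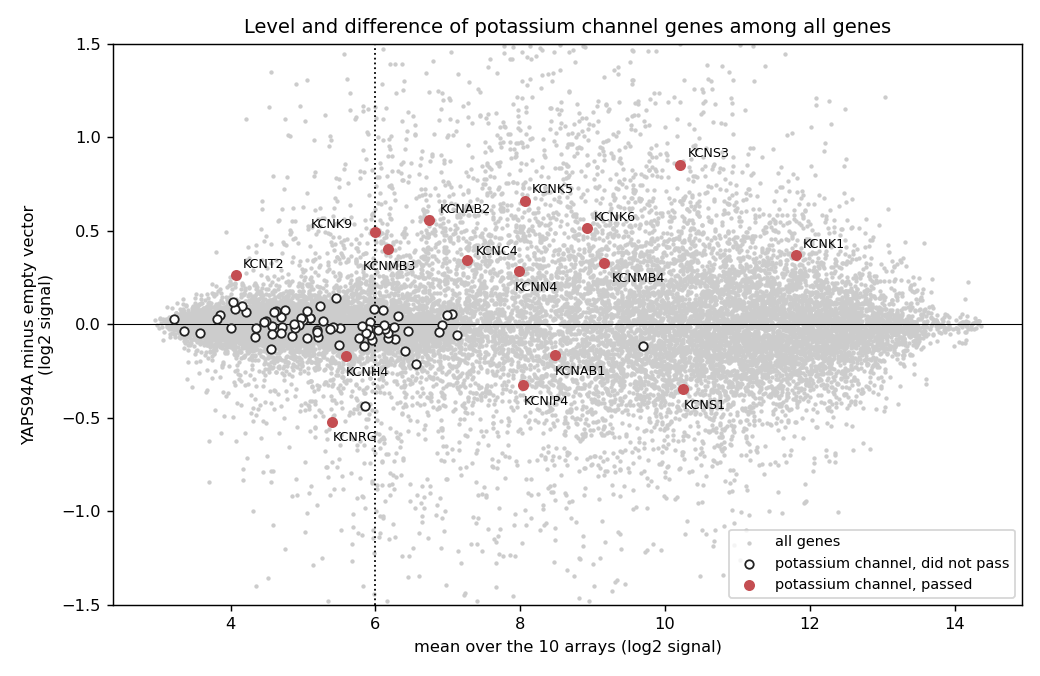
Mean log2 signal over the 10 arrays (x axis) against the difference between YAPS94A and empty vector (y axis, log2 signal) for all genes (grey) and for potassium channel genes (circles), filled where the gene passed the test. The dotted line marks a mean of 6, and the filled circles lie mostly to its right, with 10 genes higher and 3 lower there. Among the higher ones, KCNK9 and KCNMB3 lie there through the construct arrays only. The axis leaves out 277 other genes with differences beyond 1.5.

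A mean of 6 lies a little under the median of all signals (6.27), and no detection calls were used, so many of the dimmer genes may carry background only. Just inside the limit lay KCNK9 (6.002), KCNH5 (6.03) and KCNK3 (6.11), and just outside lay KCNK10 (5.98), KCNH2 (5.96) and KCNA1 (5.92). KCNK9 and KCNMB3 were above 6 with the construct only, so they reached the limit through the group in which they are high. The other 11 genes past the test in this set were above 6 with empty vector as well.

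Tandem-pore channels, which carry the background leak of potassium that holds cells near their resting potential, rose in 4 of the 7 genes with a mean of at least 6, and none fell. That is 57.1% called, beside 48.9% of all genes of that level, and with KCNK9, which reached the level through the construct arrays, left out it is 3 of 6. KCNK5 (TASK-2), a leak channel that opens at alkaline pH and takes part in volume regulation, rose 1.58-fold. KCNK6 (TWIK-2) rose 1.43-fold, and KCNK1 (TWIK-1), a weakly conducting relative, rose 1.29-fold. KCNK9 (TASK-3), an acid-sensitive leak channel, was 1.41-fold higher.

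The sequences before the starts of KCNK1, KCNK5 and KCNK6 are shown because these 3 genes of 1 class rose. For KCNK9, which also rose, no sequence was used here. The printed stretches are the 250 bases before the start in RefSeq (GRCh38.p14), 5′ to 3′ on the strand of the gene, and capitals mark the core letters bound by TEAD factors (GGAATG, searched on both strands).
KCNK1: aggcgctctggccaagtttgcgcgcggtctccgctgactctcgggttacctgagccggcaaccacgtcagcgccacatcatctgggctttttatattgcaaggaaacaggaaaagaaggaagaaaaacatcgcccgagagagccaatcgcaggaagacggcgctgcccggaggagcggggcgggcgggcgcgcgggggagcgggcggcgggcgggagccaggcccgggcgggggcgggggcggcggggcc
KCNK5: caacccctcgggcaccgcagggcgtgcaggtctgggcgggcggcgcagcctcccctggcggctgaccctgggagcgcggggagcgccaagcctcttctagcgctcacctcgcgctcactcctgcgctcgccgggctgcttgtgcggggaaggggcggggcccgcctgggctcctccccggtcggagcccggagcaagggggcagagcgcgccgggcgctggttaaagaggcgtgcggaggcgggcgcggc
KCNK6: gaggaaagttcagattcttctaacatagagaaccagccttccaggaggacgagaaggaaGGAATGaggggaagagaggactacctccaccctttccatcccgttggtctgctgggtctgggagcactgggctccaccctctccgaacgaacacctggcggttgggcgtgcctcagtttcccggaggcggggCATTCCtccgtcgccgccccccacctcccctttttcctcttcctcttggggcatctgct

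These stretches lie at chr1:233613856-233614105, plus strand, at chr6:39229476-39229725, minus strand, and at chr19:38319595-38319844, plus strand. KCNK6 held the TEAD letters at 2 places, beginning 191 and 59 bases before the start. KCNK1 and KCNK5 did not hold these letters in this window, and none of the 3 held the AP-1 letters TGANTCA. The KCNK1 and KCNK5 windows were rich in G and C, at 69.2% and 77.2%, with 30 and 31 CpG pairs. The KCNK6 window had 59.6% and 11, close to the medians over all 35116 promoters of the table, 58.0% and 11. A match describes letters and is not a binding site.

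KCNK5 read 7.88, 7.79, 7.72, 7.56 and 7.70 with empty vector and 8.29, 8.46, 8.34, 8.36 and 8.50 with the construct. The groups were clearly apart, since the highest empty vector array read 7.88 and the lowest construct array 8.29. The difference was 0.66 ± 0.062 (SE, limma adjusted p = 4.3e-06, n = 5 each). KCNK6 read 8.92, 8.64, 8.62, 8.56 and 8.58 with empty vector and 9.27, 9.29, 9.18, 9.07 and 9.09 with the construct. The groups did not overlap, although empty vector array 1 was close to the lowest construct array, and the difference was 0.52 ± 0.073 (limma adjusted p = 0.000134). KCNK5 and KCNK6 had 1 probe set each. That of KCNK5 is an _s_at one, so the alternative without _x_at and _s_at probe sets does not cover this gene.

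KCNK1 read 11.52, 11.63, 11.71, 11.64 and 11.61 with empty vector and 11.99, 11.97, 12.03, 11.97 and 11.99 with the construct. The construct arrays lay within 0.06 of each other, above all empty vector arrays, and the difference was 0.37 ± 0.039 (limma adjusted p = 1.24e-05). Its other bright probe set rose by 0.49 ± 0.049, while probe sets with means of 5.96 and 4.24 differed by -0.03 and 0.05. KCNK9 read 5.79, 5.69, 5.88, 5.59 and 5.82 with empty vector and 6.18, 6.42, 6.17, 6.40 and 6.08 with the construct. The groups did not overlap (difference 0.50 ± 0.077, limma adjusted p = 0.000294), but the second KCNK9 probe set, with a mean of 4.79, differed by -0.04 ± 0.058. Genes near KCNK9 in chromosome order were higher too, with a median difference of 0.23 among its 30 closest brighter neighbours, and 0.27 remained after this was subtracted.

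The other tandem-pore genes of that level did not pass. KCNK3 (TASK-1), acid-sensitive, differed by 0.08 ± 0.070, KCNK4 (TRAAK), opened by membrane stretch, by 0.00 ± 0.068, and KCNK16 (TALK-1), known from pancreatic islets, by -0.14 ± 0.061. KCNK16 passed with the array number as a block (limma adjusted p = 0.0387 in place of 0.0949). The 7 tandem-pore genes with lower means did not pass either, with differences between -0.04 and 0.08.

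**Figure D2:**
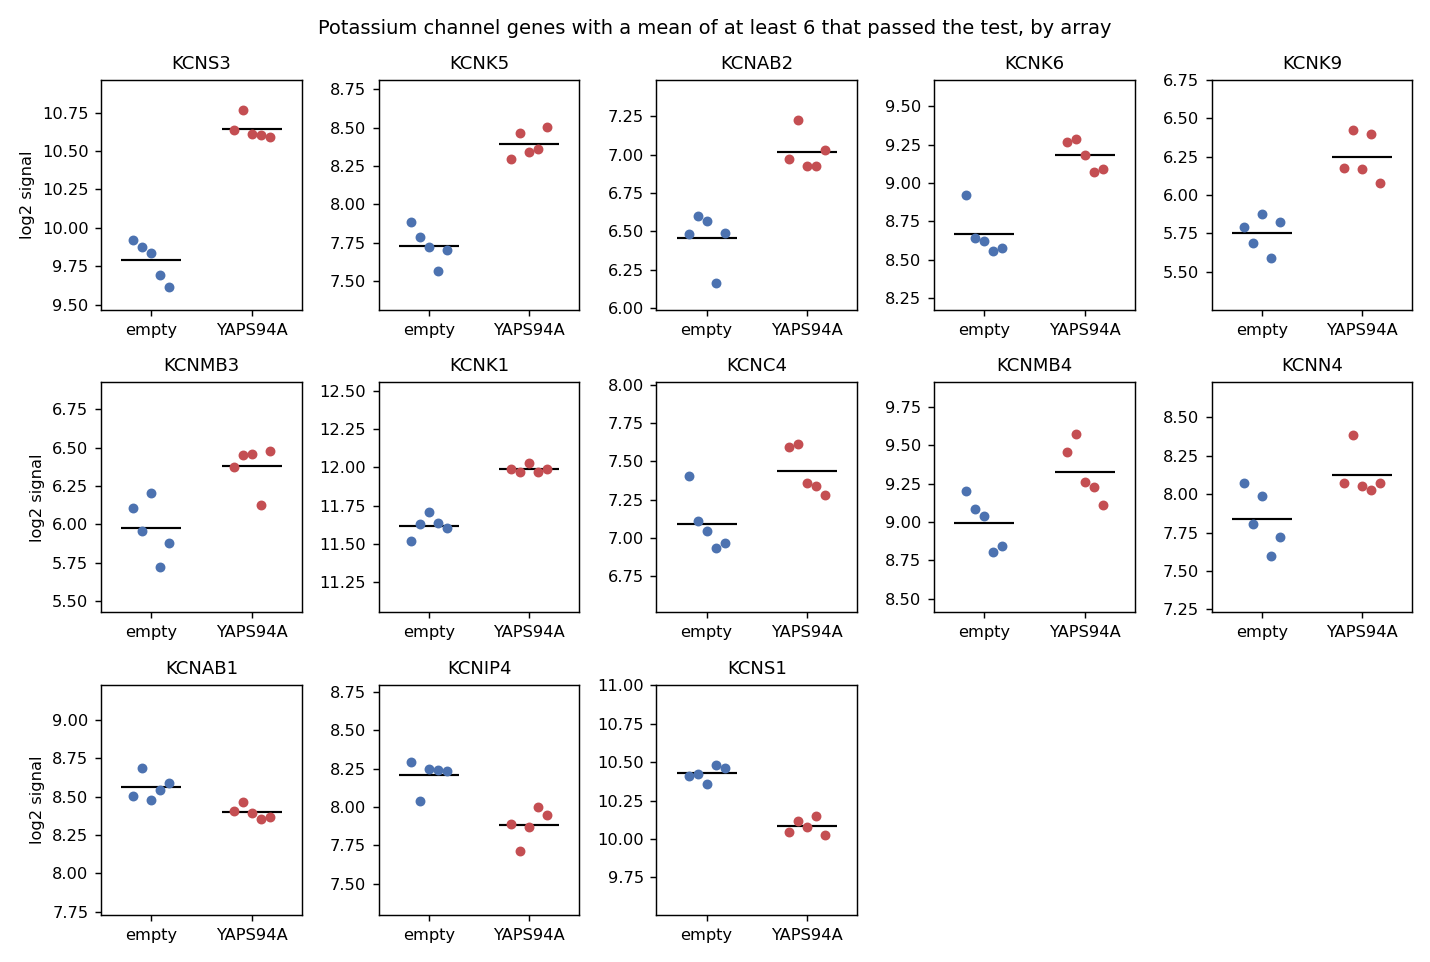
Log2 signal (y axis) on each array for the 13 potassium channel genes with a mean of at least 6 that passed the test, with the 5 empty vector arrays in blue, the 5 YAPS94A arrays in red and a line at each mean. Points of a group run from array 1 on the left to array 5 on the right, every panel spans the same range of log2 signal, and 4 genes (KCNMB4, KCNN4, KCNC4 and KCNMB3) show overlapping groups.

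Of 35 voltage-gated alpha subunit genes 2 were higher, 2 were lower and 31 did not pass. Of the 12 with a mean of at least 6, 3 passed (25%, beside 48.9% of all genes of that level), and of the 23 dimmer ones 1 passed (4.35%, beside 12.5%). The genes that changed most were KCNS3 and KCNS1, which went in opposite directions. Both encode modulatory subunits that form no channel alone and join pore subunits of other voltage-gated channels. KCNS3 rose 1.81-fold, the largest change among the 87 genes, and KCNS1 fell 1.27-fold.

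KCNS3 read 9.92, 9.87, 9.84, 9.69 and 9.62 with empty vector and 10.64, 10.77, 10.61, 10.60 and 10.59 with the construct. The groups were far apart, with no empty vector array above 9.92 and no construct array below 10.59, and the difference was 0.85 ± 0.062 (limma adjusted p = 5.16e-07). KCNS1 read 10.41, 10.42, 10.36, 10.48 and 10.46 with empty vector and 10.04, 10.12, 10.08, 10.15 and 10.03 with the construct. Here all construct arrays lay below all empty vector arrays, and the difference was -0.35 ± 0.038 (limma adjusted p = 1.94e-05). Each of these genes had 1 probe set. The pore subunit KCNB2, a possible partner, read 6.21 ± 0.05 and 6.14 ± 0.13 (SD, n = 5) and did not pass. The other KCNS gene, KCNS2, had a mean of 5.50 and did not pass.

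RefSeq lists 2 starts for KCNS3, shown here because this gene changed most. The first window lies at chr2:17877597-17877846, plus strand, and the second at chr2:17878417-17878666, plus strand (GRCh38.p14).
KCNS3 first start: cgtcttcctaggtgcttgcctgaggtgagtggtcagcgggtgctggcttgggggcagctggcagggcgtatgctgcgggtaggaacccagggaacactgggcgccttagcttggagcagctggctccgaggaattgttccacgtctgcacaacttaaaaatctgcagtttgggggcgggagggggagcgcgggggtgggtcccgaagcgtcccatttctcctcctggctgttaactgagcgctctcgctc
KCNS3 second start: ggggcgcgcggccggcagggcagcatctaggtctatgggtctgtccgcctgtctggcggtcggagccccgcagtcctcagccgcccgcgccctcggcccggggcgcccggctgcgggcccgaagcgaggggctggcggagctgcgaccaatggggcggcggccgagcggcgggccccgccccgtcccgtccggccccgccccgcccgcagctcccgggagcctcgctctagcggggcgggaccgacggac

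Neither KCNS3 window held the TEAD or the AP-1 letters, and the second was the richer in G and C, at 81.2% against 62.4%. The promoter table held 68 of the 87 genes with 105 starts, and KCNS1 was not among them. Of these 105 windows 11 held the TEAD letters (10.5%), beside 11.9% of all promoters. Among the 25 windows of genes that passed the test 1 held them, that of KCNK6. The AP-1 letters stood in 9 of the 105 windows (8.57%), beside 6.57% of all promoters, and in 3 of the 25, those of KCNAB1, KCNMB3 and KCNIP4.

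KCNC4, a fast-inactivating voltage-gated pore subunit, was higher by 0.34 ± 0.096 (limma adjusted p = 0.014). It read 7.41, 7.11, 7.04, 6.93 and 6.97 with empty vector and 7.59, 7.61, 7.36, 7.34 and 7.28 with the construct. The groups overlapped through empty vector array 1, and in both vectors the arrays numbered 1 stood among the highest. Without the arrays numbered 1 and 2 the difference was the same size (0.34, limma adjusted p = 0.000815). A second KCNC4 probe set rose by 0.44 ± 0.079, while the remaining one, with a mean of 6.59, was at -0.12 ± 0.072, so the probe sets disagreed.

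By their brightest probe sets, the remaining voltage-gated genes with a mean of at least 6 stayed within 0.08 of no difference and did not pass. They were KCNQ1 (0.05 ± 0.057), a slowly activating channel of heart and secretory epithelia, KCNQ5 (-0.06 ± 0.063), of the same M-current family, KCNC2 (0.00 ± 0.046), KCND1 (-0.03 ± 0.048) and KCND3 (-0.04 ± 0.072), which give transient A-type currents, KCNH3 (-0.03 ± 0.052), KCNH5 (-0.03 ± 0.049), KCNB2 (-0.07 ± 0.059) and the silent subunit gene KCNF1 (-0.08 ± 0.072). A dimmer KCNH5 probe set, with a mean of 5.01, fell by 0.31 ± 0.057 (limma adjusted p over all probe sets = 0.00146). Another, with a mean of 5.22, differed by 0.02 ± 0.084. The 7 KCNA genes, the Shaker-type channels, all had means below 6, and their differences lay between -0.06 and 0.12.

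Calcium-activated channels were represented at this level by KCNN4, the intermediate-conductance channel that calmodulin opens when calcium rises and that serves chloride secretion in epithelia. KCNN4 read 8.07, 7.80, 7.99, 7.60 and 7.72 with empty vector and 8.07, 8.39, 8.05, 8.03 and 8.07 with the construct. The groups overlapped, construct array 2 stood above the rest, and the difference of 0.28 ± 0.096 passed narrowly (limma adjusted p = 0.0369). The call was lost in 9 of 20 alternatives, among them 7 of the 10 that leave out a single array, where the adjusted p reached 0.0836, and without the arrays numbered 1 and 2 (limma adjusted p = 0.0516). KCNMA1, the large-conductance BK pore subunit, read 4.996 and 5.02 with a difference of 0.02.

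Inward rectifiers, which pass potassium inward more easily than outward, did not pass in limma in any of the 13 genes by their brightest probe sets. Dim probe sets of KCNJ4 and KCNJ5, each with a mean of 4.50, passed the test over all probe sets. That of KCNJ4 was at -0.46 ± 0.071 (limma adjusted p = 0.000415) and that of KCNJ5 at 0.17 ± 0.055 (limma adjusted p = 0.0388). KCNJ15 (Kir4.2), an epithelial member, read 9.95, 9.79, 9.76, 9.64 and 9.64 with empty vector and 9.69, 9.70, 9.64, 9.62 and 9.56 with the construct. These groups overlapped, and the difference was -0.11 ± 0.060 (95% confidence interval -0.24 to 0.02). KCNJ5, a pore subunit opened by G proteins, differed by -0.04 ± 0.044 on an _x_at probe set, a kind open to cross-hybridisation. KCNJ14, with a mean below 6, read 5.61, 5.86, 6.20, 6.45 and 6.29 with empty vector and 5.24, 5.41, 5.78, 5.90 and 5.90 with the construct. It was lowest on the arrays numbered 1 of both vectors. Its difference of -0.44 ± 0.17 did not pass (limma adjusted p = 0.0722), but it passed with the array number as a block (4.37e-05) and without the arrays numbered 1 and 2 (0.00192).

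**Figure D3:**
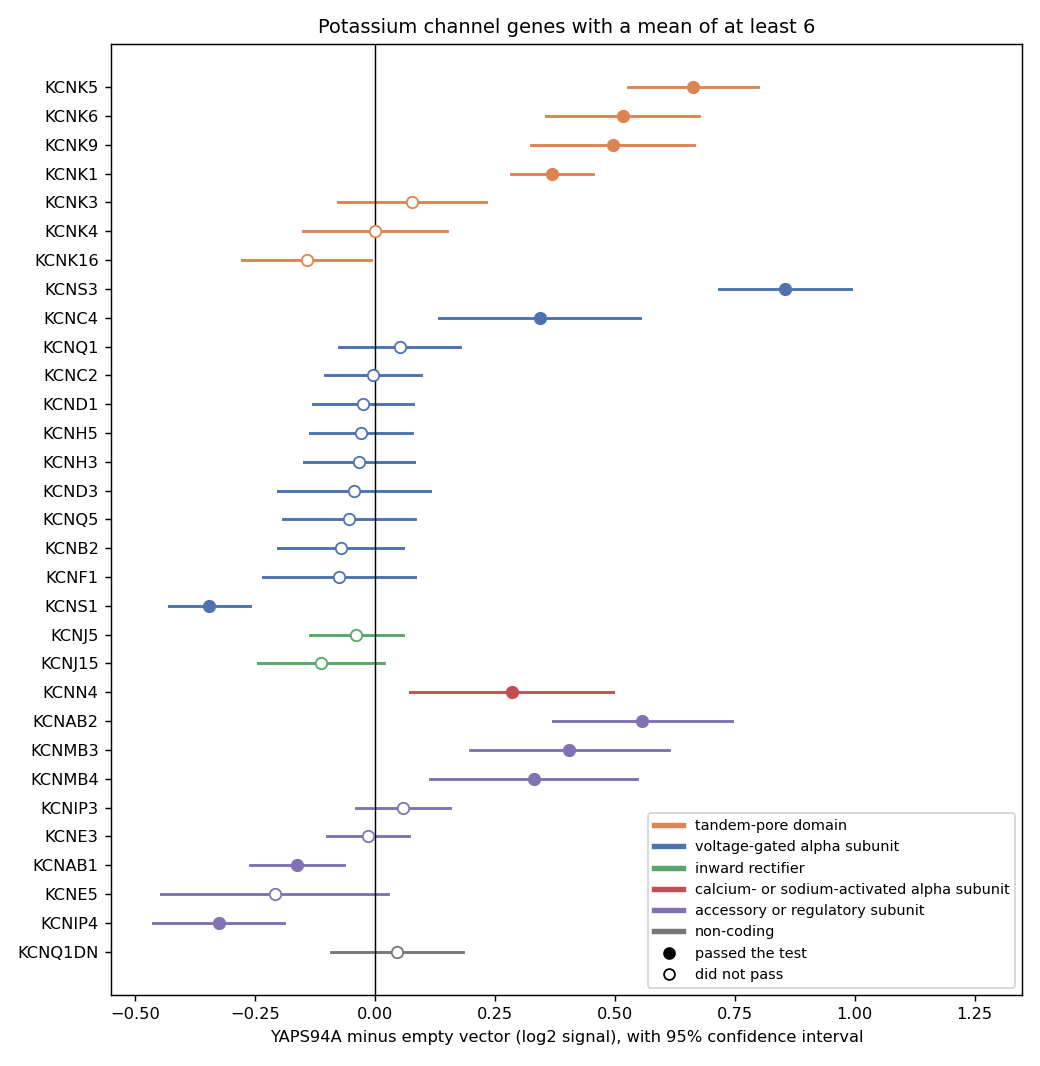
Difference between YAPS94A and empty vector (x axis, log2 signal) with its 95% confidence interval from limma for the 31 potassium channel genes with a mean of at least 6, grouped by class (colour), filled where the gene passed the test. Filled points lie right of 0 for 4 tandem-pore genes and on both sides for voltage-gated and accessory genes, while KCNJ5 and KCNJ15 cover 0.

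Accessory and regulatory subunits with a mean of at least 6 were split, with 3 higher, 2 lower and 3 not past the test of 8 genes (62.5% called, beside 48.9% of all genes of that level). KCNMB3 is among the higher ones and reached the level through the construct arrays. Without it 4 of 7 passed. The beta subunits of voltage-gated channels went in opposite directions. KCNAB2 rose 1.47-fold and KCNAB1 fell 1.12-fold. Both encode cytoplasmic proteins of the aldo-keto reductase fold that bind channels of the KCNA type.

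KCNAB2 read 6.48, 6.60, 6.57, 6.16 and 6.49 with empty vector and 6.97, 7.23, 6.93, 6.93 and 7.03 with the construct. The groups did not overlap, with empty vector array 4 the lowest of all, and the difference was 0.56 ± 0.085 (limma adjusted p = 0.00025). A second KCNAB2 probe set, with a mean of 6.08, differed by 0.05 ± 0.049. KCNAB1 read 8.50, 8.69, 8.48, 8.54 and 8.59 with empty vector and 8.40, 8.46, 8.40, 8.36 and 8.37 with the construct. The distance between the groups was small (difference -0.16 ± 0.045, limma adjusted p = 0.013), and 4 of the 5 KCNAB1 probe sets were between -0.26 and -0.09. The neighbours of KCNAB1 had a median of -0.11. With this subtracted, the difference was -0.05 and the call was lost (limma adjusted p = 0.374).

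The beta subunits of BK channels KCNMB4 and KCNMB3 were both higher, while their pore subunit gene KCNMA1 was dim as given above. KCNMB4 read 9.20, 9.09, 9.04, 8.81 and 8.84 with empty vector and 9.46, 9.58, 9.26, 9.23 and 9.11 with the construct. The groups overlapped and the arrays numbered 1 and 2 were the brightest in each vector. The difference was 0.33 ± 0.099 (limma adjusted p = 0.0203), and without the arrays numbered 1 and 2 it was 0.30 (limma adjusted p = 0.0145). It was 0.33 and 0.32 on the other KCNMB4 probe sets. The call was lost without empty vector array 5 (limma adjusted p = 0.0508) or without YAPS94A array 1 (0.0539). KCNMB3 read 6.10, 5.96, 6.20, 5.72 and 5.88 with empty vector and 6.38, 6.45, 6.46, 6.12 and 6.48 with the construct. Construct array 4 lay among the empty vector arrays, the difference was 0.41 ± 0.094 (limma adjusted p = 0.00492), and without the arrays numbered 1 and 2 it was 0.42 with the call lost (limma adjusted p = 0.052).

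KCNIP4, a calcium-binding partner of the A-type KCND channels, fell 1.25-fold. It read 8.29, 8.04, 8.25, 8.24 and 8.23 with empty vector and 7.89, 7.71, 7.87, 7.999 and 7.95 with the construct. The lowest empty vector array lay just above the highest construct array, and the difference was -0.33 ± 0.062 (limma adjusted p = 0.00127). A dimmer KCNIP4 probe set was at -0.24 ± 0.064. KCNIP3, of the same family, differed by 0.06 ± 0.044 on an _x_at probe set. Its other bright probe sets, with means of 7.06 and 6.99, both differed by -0.01. A dim KCNIP3 probe set with a mean of 4.48 fell by 0.22 ± 0.050 (limma adjusted p over all probe sets = 0.00567). KCNE3, which keeps KCNQ1 open in secretory epithelia, differed by -0.02 ± 0.039, and KCNE5 by -0.21 ± 0.11 (limma adjusted p = 0.166).

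**Figure D4:**
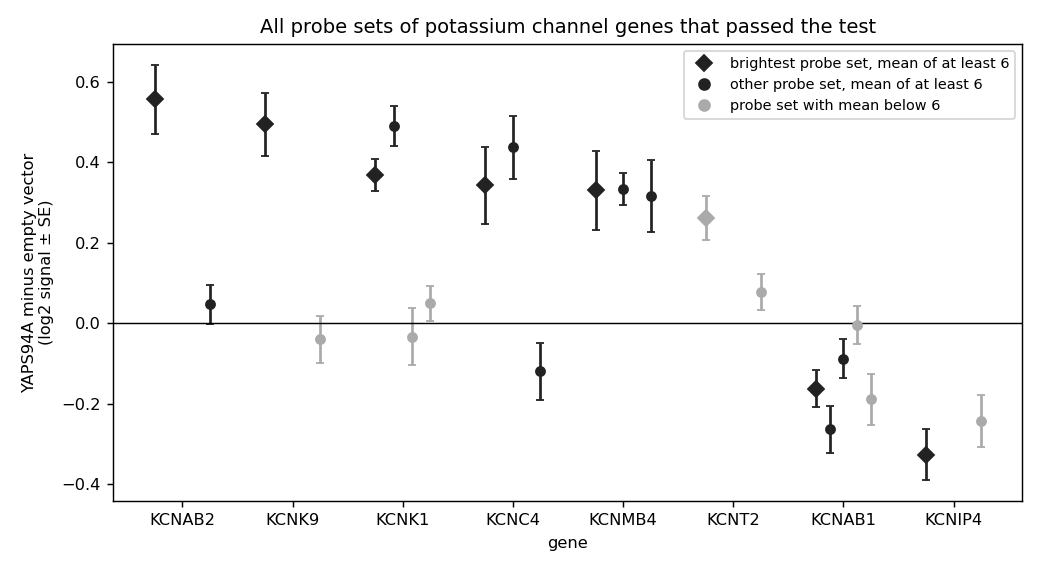
Difference between YAPS94A and empty vector (y axis, log2 signal, with bars of 1 SE) for every probe set of the 8 potassium channel genes past the test that have more than 1 probe set. Diamonds mark the brightest probe set of a gene and grey marks probe sets with a mean below 6. The probe sets of KCNMB4 lie together near 0.33, and those of KCNAB2, KCNC4 and KCNK9 do not.

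Over the 8 genes past the test with more than 1 probe set, 12 of 15 other probe sets had the sign of the chosen one, and 7 of them passed the test over all probe sets in that direction. The 18 genes with a mean of at least 6 that did not pass had differences between -0.21 and 0.08, and their 95% confidence intervals lay between -0.45 and 0.23.

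Of the 56 genes with a mean below 6, 1 was higher and 2 were lower, which is 5.36%, beside 12.5% of all genes below that level. KCNRG, a regulator that hinders assembly of voltage-gated channels, fell by 0.52 ± 0.084 (limma adjusted p = 0.000368). It read 5.76, 5.51, 5.72, 5.59 and 5.75 with empty vector and 5.10, 5.33, 5.25, 5.18 and 4.87 with the construct. The other calls, named after their values were seen, were KCNH4 (-0.17 ± 0.045) and the sodium-activated channel gene KCNT2 (0.26 ± 0.053). All 3 had groups that did not overlap. KCNT2 had means of 3.94 and 4.20, under the lower quartile of signals (4.73), as did 23 of the 56 genes by their means.

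Genes that work with these channels were taken from 3 lists. Of 17 listed partners without a KCN symbol 14 were measured, with 5 higher, none lower and 9 not past the test (35.7%, beside 36.3% of all genes). Without the arrays numbered 1 and 2, 4 were higher and 1 was lower, TMEM38B, an intracellular channel of the TMEM38A family named after its value was seen (-0.23, limma adjusted p = 0.00554). HCN3, a cation channel opened by hyperpolarisation, rose by 0.91 ± 0.090, AMIGO1, an accessory protein of voltage-gated channels, by 0.64 ± 0.11, and TMEM38A, a potassium channel of intracellular membranes, by 0.59 ± 0.073. ABCC9, the sulphonylurea receptor of ATP-sensitive channels, was 0.18 ± 0.047 higher. ABCC9 lost its call without the arrays numbered 1 and 2 (limma adjusted p = 0.0797), when its probe sets were averaged (0.187) and without _x_at and _s_at probe sets (0.0824). TMEM175, a lysosomal potassium channel named after its value was seen, rose by 0.25 ± 0.065.

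Of 29 listed pumps, cotransporters and their kinases 24 were measured, with 3 higher and 2 lower (20.8%, beside 36.3% of all genes). With the array number as a block 5 were higher and 2 lower, since the cotransporter gene SLC12A4 (limma adjusted p = 0.0221) and the kinase gene WNK4 (0.0271) also passed. Both passed without the arrays numbered 1 and 2 as well, and both are named after their values were seen. FXYD3, a regulator of the sodium pump, rose by 1.10 ± 0.070, and FXYD6, of the same family, fell by 0.45 ± 0.088. STK39, the kinase that activates the sodium-potassium-chloride cotransporter, rose by 0.49 ± 0.051, and its upstream kinase gene WNK1 fell by 0.37 ± 0.073. WNK1 lay among neighbours with a median of -0.30, and the call was lost with this subtracted (-0.08, limma adjusted p = 0.429). The cotransporter gene itself, SLC12A2, named after its value was seen, rose by 0.26 ± 0.054. The sodium pump subunit genes ATP1B1 and ATP1B3 did not pass, at 0.07 and 0.09.

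Calcium entry, store and pump genes raise or lower the calcium signal for KCNN4 and BK channels. Of 19 measured 9 passed, 4 higher and 5 lower (47.4%, beside 36.3% of all genes). Most of the 19 had a mean of at least 6, and 48.9% of all genes of that level passed. ATP2B4, a calcium pump of the plasma membrane, rose by 1.24 ± 0.097, TRPC1, a cation channel, by 1.17 ± 0.084 and ORAI3, a pore of store-operated entry, by 0.79 ± 0.061. TRPC4, of the TRPC1 family, went from 9.89 ± 0.08 to 4.86 ± 0.18 (SD, n = 5), close to the lower quartile of signals. The other genes of this list past the test are named after their values were seen. ORAI2 was higher (0.70 ± 0.072). ITPR1 (-0.80 ± 0.066), ATP2B1 (-0.46 ± 0.046), TRPV6 (-0.36 ± 0.084) and ITPR2 (-0.25 ± 0.050) were lower, and ITPR2 lay among neighbours with a median of -0.37.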

How the data were processed

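Cellular RNA was amplified and labelled with biotin, per the labels' protocols. The authors deposited log2 signals of 54675 probe sets on 10 single-colour Affymetrix arrays, whose summary method and normalization are not given in the sources used here. The medians of the arrays ran from 6.25 to 6.28, and no further normalization was applied. An array carries no count of molecules, so the number of arrays limits the precision.

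Gene symbols came from the annotation of the platform and were brought up to date with RefSeq (GRCh38.p14). Of them 41097 had 1 symbol, 1801 several and 11777 none, and the brightest 1-symbol probe set stood for each gene, without the 62 control probe sets. Differences were fitted in limma (3.58.1, under R 4.3.3), lmFit and eBayes with no covariate, two-sided. The fit was tested on simulated data with independent noise and few changed genes, so that test does not cover effects shared by the genes of an array. Gene order came from RefSeq. The members and lists were chosen with earlier results of these data known.

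Named genes were YAP1, all members with a mean of at least 6, dimmer members past the test by at least 0.5, the 3 members on either side of 6, and the 4 genes of smallest p in each of 3 lists. Bright or sign-changing second probe sets are given for some of these genes only. Those of KCNJ15, KCNB2, KCNQ1, KCNQ5 and KCND3, among others, are left out. Alternatives covered probe set choice, 2 renormalizations, a filter on dim genes, variance models, array weights, a block, neighbours and each array left out. Leaving out the arrays numbered 1 and 2 was chosen after seeing the data.

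Both vectors share the numbers 1 to 5. After subtracting group means, the 5 pairs of arrays with a shared number had correlations between 0.102 and 0.59. Of the 10 arrays, 4 correlated best with the array of their own number in the other vector. The numbers were used as pairs only in the alternative with the array number as a block, and the main fit ignores them. The labels name no batch. No 2 arrays were identical, with correlations of 0.9957 to 0.9991 within a vector.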

Additional observations from a re-analysis of the deposited data

Results flagged for a closer look

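An array stood apart from the other 4 of its vector in 10 of 96 groups of 5 arrays examined over the named genes, where chance gives about 1 in 20. YAPS94A array 2 was the high one for KCNS3 (10.77, others 10.59 to 10.64), KCNN4 (8.39, others 8.03 to 8.07) and KCNJ5 (7.01, others 6.79 to 6.85). Empty vector array 4 was the low one for KCNAB2 (6.16, others 6.48 to 6.60) and KCNIP3 (6.88, others 7.05 to 7.10). Empty vector array 1 was high for KCNK6 (8.92, others 8.56 to 8.64) and empty vector array 2 was low for KCNIP4 (8.04, others 8.23 to 8.29). The remaining ones were YAPS94A array 3 for KCND3 (6.32, others 6.08 to 6.12), empty vector array 5 for KCNK10 (5.79, others 5.94 to 6.01) and YAPS94A array 5 for KCNH2 (5.71, others 5.95 to 5.99).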

How the results depend on the processing

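Over 35 named potassium channel genes and their alternatives, 651 of 671 values kept their direction or stayed uncalled on their side of the threshold, 13 lost a call, 6 gained one and 1 reversed. The reversal was KCNA1, which went from -0.06 to 0.24 with the median of its 30 neighbours subtracted (limma adjusted p = 0.00393). The number of potassium channel genes higher was 6 when only genes above the median level were tested, which left 10 members to test, and 16 with neighbours subtracted. The number lower was 3 and 10 under these settings. For genes with a mean of at least 6 the number higher was 6 above the median level, and leaving out single arrays gave 8 to 10 higher and 3 to 4 lower. Over all 87 it gave 9 to 11 and 5 to 6. With the array number as a replicate block, 11 genes were higher and 7 lower, no call was lost, and KCNK16 and KCNJ14 were gained. The block gave 5 calls among partners, 7 among pumps and cotransporters and 10 among calcium genes. Without the arrays numbered 1 and 2, 10 were higher and 6 lower, with KCNN4 and KCNMB3 lost and KCNJ14 and KCNK15 gained. Calls among channel partners fell to 2 above the median level. Pump and cotransporter calls rose to 8 with the mean of probe sets and to 8 with array weights, and the cause was not tested. Without detection calls, signals near background limit what the dim genes can show.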

Other observations

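RNAs transcribed from potassium channel loci under antisense or overlapping-transcript symbols, left out by the rule, did not pass in limma for any of 10 symbols. KCNQ1OT1, the long RNA that overlaps KCNQ1, had a signal of 6.32 ± 0.09 (SD, n = 5) in empty vector arrays and 6.37 ± 0.14 in construct arrays. KCNJ5-AS1, the brightest of them, read 8.42 ± 0.14 and 8.40 ± 0.14. The arrays did not overlap for KCNH7-AS1, which read 3.08 and 3.17 (limma adjusted p = 0.0577), both near the lowest signal of 2.86.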
